A study of Mus musculus with 4 samples.

Results

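The genes described here are 38 members of glycolysis and of the hypoxia response, listed by gene symbol and measured on 4 microarrays of mouse type 1 conventional dendritic cells (cDC1), the dendritic cell subset that presents antigen from dead cells to CD8 T cells. Array probe sets annotated with exactly 1 of these symbols gave values for 33 of the 38 members, among 17293 named genes on the array. Aldoa, Bnip3l and Ankrd37 appeared on shared probe sets only, whose annotation also lists another gene, and Gpi1 and Eno1 had no listed probe set and were not analysed here. The arrays held 1 sample each of XCR1-deficient (KO) cells given lipopolysaccharide (LPS) and recombinant mouse XCL1, KO cells given LPS, wild-type (WT) cells given LPS and XCL1, and WT cells given LPS, with both agents at 100 ng/ml. All mice were of the C57BL/6 strain, aged 10 weeks and labelled female, and every group carried LPS, so no resting cells are in the comparison. XCR1 is a chemokine receptor carried mostly by cDC1, and XCL1 binds it. The sources used here do not give how the receptor gene was inactivated, the tissue, the mice behind each array or how long the cells were treated. With 1 array per group there is no replicate, so no value below has an error or a p-value, and the number of arrays limits the precision.

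Glycolysis converts glucose to pyruvate, and cells that reduce the pyruvate to lactate can run the pathway without mitochondrial respiration. Dendritic cells raise glycolysis soon after Toll-like receptor stimulation, which serves the synthesis of fatty acids and the secretory pathway. Many of its enzymes are also targets of the hypoxia-inducible factor HIF, whose alpha subunit is hydroxylated by Egln enzymes when oxygen is present and then degraded through the Vhl ubiquitin ligase. LPS also acts on HIF at normal oxygen, so both groups of genes are commonly read together in activated myeloid cells.

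HIF binds short sites with the core ACGTG or GCGTG, and the 300 bases around the start of 5 members are shown with these letters marked. The 5 were chosen after their values were seen. Egln1 was lower in KO cells in both treatments, and Ddit4 had the highest XCL1 difference among the members in KO cells. Gapdh and Hk2 differed in opposite directions with XCL1 in KO cells. Bnip3 had opposite XCL1 differences in the 2 genotypes, with signals on every array below the signal limit used below. The sequences are RefSeq's for GRCm38.p6, run 5′ to 3′ from 250 bases before to 50 bases after the annotated start, and capitals mark each ACGTG or GCGTG on either strand, including where CACGTG reads as ACGTG both ways.
Egln1, chr8:124949205-124949504, - strand: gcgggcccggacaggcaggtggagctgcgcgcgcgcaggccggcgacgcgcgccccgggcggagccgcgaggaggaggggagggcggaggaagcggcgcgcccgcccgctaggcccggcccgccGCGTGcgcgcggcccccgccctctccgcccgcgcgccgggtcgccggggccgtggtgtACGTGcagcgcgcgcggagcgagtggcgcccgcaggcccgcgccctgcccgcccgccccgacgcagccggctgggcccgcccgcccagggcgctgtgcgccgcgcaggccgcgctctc
Ddit4, chr10:59951721-59952020, - strand: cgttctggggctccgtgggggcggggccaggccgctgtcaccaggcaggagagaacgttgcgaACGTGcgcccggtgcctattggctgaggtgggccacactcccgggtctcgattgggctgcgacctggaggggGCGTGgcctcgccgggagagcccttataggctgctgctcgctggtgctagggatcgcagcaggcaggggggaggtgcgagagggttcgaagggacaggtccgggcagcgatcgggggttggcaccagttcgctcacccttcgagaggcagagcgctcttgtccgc
Gapdh, chr6:125165724-125166023, - strand: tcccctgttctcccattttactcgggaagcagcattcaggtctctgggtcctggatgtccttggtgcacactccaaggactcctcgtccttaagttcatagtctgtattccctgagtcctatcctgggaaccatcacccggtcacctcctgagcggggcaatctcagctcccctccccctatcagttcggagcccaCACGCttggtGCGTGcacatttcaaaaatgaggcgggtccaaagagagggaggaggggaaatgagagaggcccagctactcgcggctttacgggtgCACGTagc
Hk2, chr6:82774405-82774704, - strand: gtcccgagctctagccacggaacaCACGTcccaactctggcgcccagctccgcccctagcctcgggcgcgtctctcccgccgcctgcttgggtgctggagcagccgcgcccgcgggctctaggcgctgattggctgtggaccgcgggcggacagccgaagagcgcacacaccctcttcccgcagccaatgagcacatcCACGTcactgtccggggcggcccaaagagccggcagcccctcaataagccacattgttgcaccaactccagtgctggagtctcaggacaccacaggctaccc
Bnip3, chr7:138909457-138909756, - strand: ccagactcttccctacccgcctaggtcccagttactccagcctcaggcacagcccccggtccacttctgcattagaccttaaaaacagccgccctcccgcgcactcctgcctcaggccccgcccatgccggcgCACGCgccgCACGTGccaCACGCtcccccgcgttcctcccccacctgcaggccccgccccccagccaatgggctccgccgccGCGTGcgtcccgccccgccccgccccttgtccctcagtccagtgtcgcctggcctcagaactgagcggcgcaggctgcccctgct

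All 5 windows held at least 1 match. Of the 35 members with an entry in the promoter table, 32 (91.4%) had ACGTG or GCGTG on either strand in at least 1 window, against 65.6% of 8940 genes above the signal limit used below and 46.7% of all 27025 genes in the table. ACGTG alone was in windows of 26 members (74.3%), against 28.5% of genes above the limit, while GCGTG was in windows of 23 members (65.7%), against 54.1%. Members had more windows per gene, and by window either motif was in 80.4% of 51, against 60.3%. Both motifs contain a CG pair, of which the members' windows had a median of 21, those of genes above the limit 20 and those of all genes 7. Hypoxia targets were listed because they are known as such, and a match is a run of letters, not a bound site. Slc2a3, Bnip3l and Ndrg1 had no entry.

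All values are log2 signals after robust multi-array averaging (RMA), a method that equalises the arrays, or differences between 2 such signals. A gene was counted as higher or lower where 2 arrays differed 1.5-fold (0.58 on the log2 scale), and the smaller step of 1.2-fold (0.26) is also given because most members differed little. The signal limit was 5.43, the median of all values, reached on at least 1 array by 11077 genes (all genes, below) and by 28 of the 33 measured members. Pfkm, Egln3, Bnip3, Higd1a and P4ha2 stayed below it on every array, so their differences are given on the log2 scale with no fold given for them. Counts over the 33 members include these 5, while shares of all genes cover only genes past the limit. Among members just inside and just outside the limit, the highest signals were 5.57 for Aldoc, 5.69 for Slc2a3, 5.36 for Higd1a and 5.34 for Bnip3.

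The targeted gene Xcr1 had signals of 5.11 with LPS and XCL1 and 5.54 with LPS in KO cells, against 7.19 and 6.42 in WT cells, the direction of the labels. Of 13 measured cDC1 markers 12 passed the limit, Irf8 among them at 10.16 and 10.05 in KO cells and 10.01 and 10.04 in WT cells, and Itgae did not. Xist, which is transcribed from an inactive X chromosome, was at 4.57 and 4.64 in KO cells, against 7.91 and 7.95 in WT cells, although all samples are labelled female. The Y-linked genes Eif2s3y (8.57 to 8.89), Uty (8.27 to 8.46) and Kdm5d (7.01 to 7.16) were above the limit on all 4 arrays, so the female label did not match the signals in either genotype. Names of the arrays carry a different prefix in each genotype, so a processing batch, the sex of the cells and genotype cannot be told apart. Among measured markers of other cells, 7 of 7 red cell genes were higher than 0 in KO minus WT in both treatments and 7 of 7 B cell genes were below 0. Of 8 T cell genes 6 were below 0 with LPS and XCL1 and 7 with LPS. Of 8 macrophage genes 5 were above 0 and 3 below in each treatment, Fcgr1 the highest at 1.19 and 1.00. Plasmacytoid dendritic cell genes split 3 and 3 in each. The summed linear signal of the red cell genes was 642 and 633 in KO cells, against 324 and 319 in WT cells, and that of the B cell genes was 1685 and 1734, against 2582 and 2489. Neutrophil genes summed to 1913 and 1676 in KO cells, against 1296 and 1367 in WT cells. In such bulk samples fewer cells of a type and less RNA per cell cannot be told apart, and the part of these cells in the genotype differences below was not tested.

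**Figure D1:**
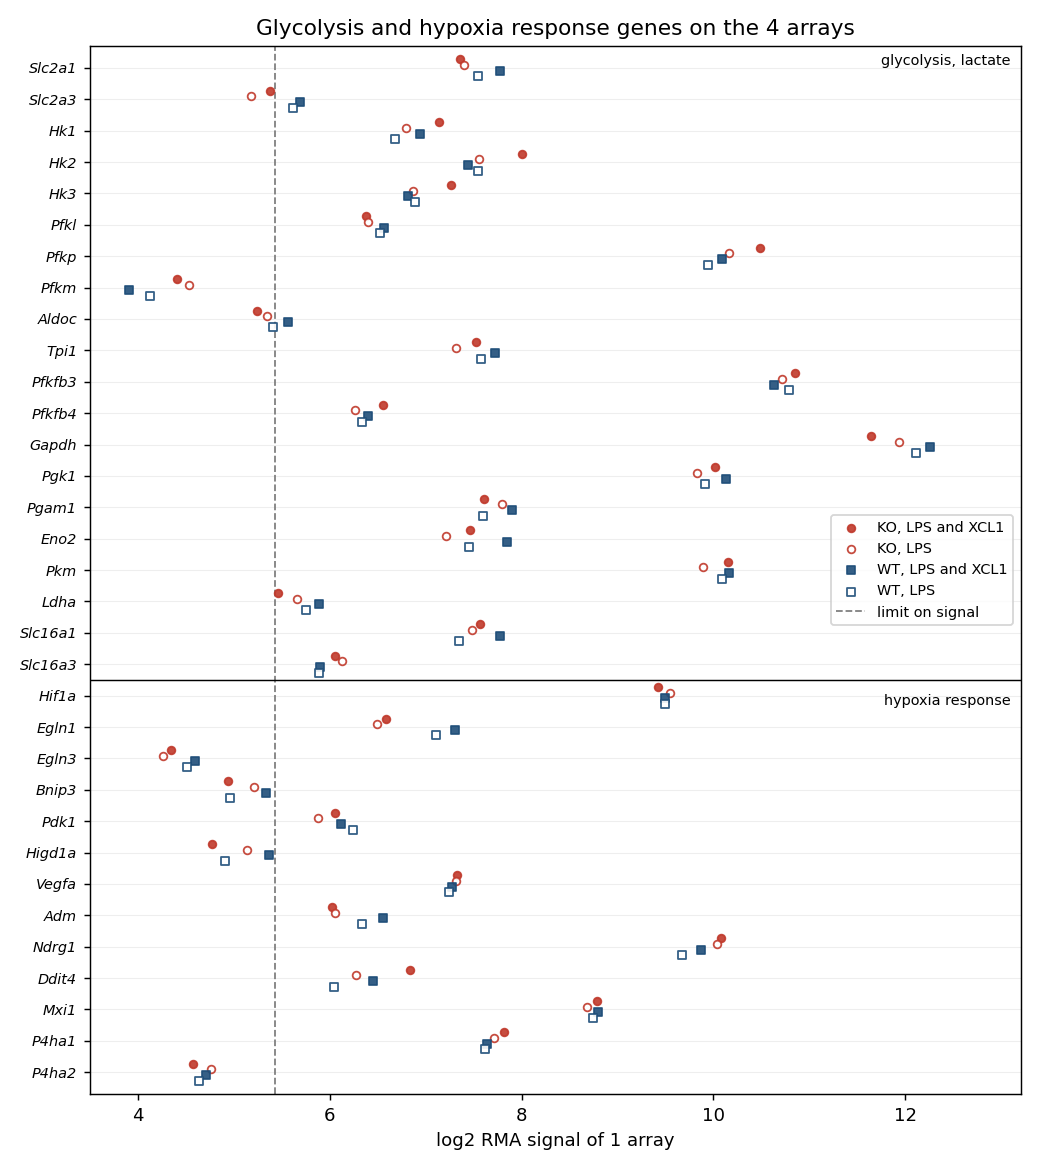
Log2 RMA signals of the 33 measured members (rows) on the 4 arrays, with circles for KO and squares for WT, filled for LPS and XCL1 and open for LPS, and the dashed line at the limit of 5.43. Most members had their 4 signals within a narrow band, while both Egln1 circles lie to the left of both squares and the filled Hk2 circle lies to the right of its other symbols.

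The XCL1 comparison asked whether the ligand moved these genes on top of LPS, in cells without and with its receptor. Few members moved far. None of the 33 differed 1.5-fold with XCL1 in KO or in WT cells, where 1.02% and 0.560% of all genes did. In KO cells 20 of 33 members were above 0, with a median of 0.090, against 59.7% and a median of 0.041 for all genes. In WT cells 28 of 33 were above 0, with a median of 0.14, against 58.3% and a median of 0.029. At 1.2-fold, 6 members were higher and 3 lower in KO cells, where 10.3% of genes were higher and 6.70% lower, and 7 were higher and 0 lower in WT cells, where 7.31% and 5.23% were. Among the 28 members past the limit, 6 were higher and 1 lower in KO cells, and 5 and 0 in WT cells. Above 0 were 19 of these 28 in KO cells and 24 in WT cells. Setting every array's gene median to the same value (centring) moves every gene of a pair by the same amount. Over all 33 members, centring took the counts above 0 from 20 to 18 in KO cells and from 28 to 20 in WT cells. It shifted the medians of all genes by -0.066 and -0.069. The share of all genes above 0 was not counted after centring, so 59.7% and 58.3% are no background for the centred counts. All genes past 1.5-fold were 53 higher and 60 lower in KO cells (27 and 88 after centring), and 25 and 37 in WT cells (13 and 65 after centring, 30 and 29 with cyclic loess).

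**Figure D2:**
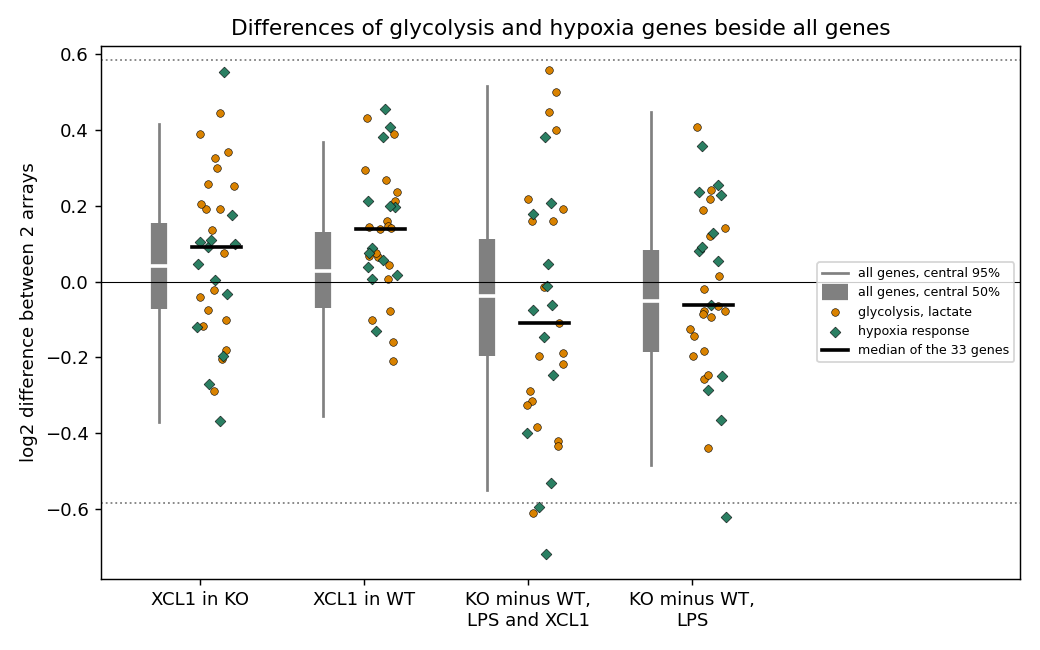
Log2 differences of the 33 members in the 4 pairs of arrays, with circles for glycolysis and lactate genes, diamonds for hypoxia genes and a black bar at their median. Grey bars give the central 50% and 95% of all genes above the limit with their median in white, and dotted lines mark 1.5-fold. Members lie within the dotted lines in both XCL1 pairs, and 3 lie below them in KO minus WT with LPS and XCL1 (Higd1a among them, below the signal limit) and 1 with LPS.

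Ddit4 had the highest XCL1 difference of any member in KO cells and was among the highest in WT cells. It encodes an inhibitor of mTORC1 signalling that is induced by hypoxia and other stresses. Its signals were 6.83 with LPS and XCL1 and 6.28 with LPS in KO cells, differing by 0.55 or 1.47-fold. In WT cells they were 6.45 and 6.04, differing by 0.41 or 1.33-fold. These differences ranked at percentiles 98.6 and 97.9 among genes of similar mean signal (one of 10 equal classes). Signals of Ddit4 were thus higher in both genotypes with XCL1, and the WT effect minus the KO effect was -0.15. Hk1, a hexokinase of most tissues, was the other member past 1.2-fold in both genotypes. It had 7.14 with LPS and XCL1 and 6.80 with LPS in KO cells (0.34), and 6.95 and 6.68 in WT cells (0.27). A dimmer probe set shared by Hk1 and Hk1os gave -0.016 and 0.36, so it was not higher in KO cells. Of all genes, 1.41% were 1.2-fold higher in both genotypes, against 2 of 33 members (6.06%). At any size 16 members (48.5%), Mxi1 by 1 of its 2 probe sets, were above 0 in both genotypes and 1, Pfkm, below, against 37.1% and 19.1% of genes.

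Glucose enters through Slc2a1 and Slc2a3, which encode the transporters GLUT1 and GLUT3. Slc2a1 signals were 7.36 with LPS and XCL1 and 7.40 with LPS in KO cells, and 7.78 and 7.54 in WT cells, so the XCL1 differences were -0.042 and 0.24. A second, dimmer probe set of Slc2a1 gave -0.03 and 0.06. For Slc2a3 they were 5.37 and 5.18 in KO cells and 5.69 and 5.62 in WT cells, differing by 0.19 and 0.07. Neither transporter reached 1.2-fold with XCL1.

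Hexokinases, which trap glucose in the cell by phosphorylation, had all 3 members higher with XCL1 in KO cells by their own probe sets. Hk2, the inducible form bound to mitochondria, had 8.0 with LPS and XCL1 and 7.56 with LPS in KO cells (0.44), and 7.45 and 7.55 in WT cells (-0.10). Hk3, a hexokinase of myeloid cells, had 7.26 and 6.87 in KO cells (0.39), and 6.81 and 6.89 in WT cells (-0.078). The KO array with XCL1 stood above the other 3 arrays for both genes, and those 3 lay closer to each other than to it. Hk2 ranked at percentile 98.4 of its signal class in KO cells and Hk3 at 96.2. Of 10 neutrophil markers, 6 were above 0 with XCL1 in KO cells (median 0.065) and 5 in WT cells (median -0.016). Their differences in KO cells ran from -0.22 for Mpo to 0.61 for S100a8, a neutrophil cytosolic protein gene. The part of neutrophils in the Hk2 and Hk3 values was not tested.

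Upper glycolysis and its regulators gave small positive differences in KO cells for the platelet-type phosphofructokinase Pfkp and the bifunctional enzymes Pfkfb3 and Pfkfb4, which set the level of the phosphofructokinase activator fructose-2,6-bisphosphate. Pfkp had 10.49 with LPS and XCL1 and 10.16 with LPS in KO cells (0.33, percentile 98.6 of its signal class), and 10.09 and 9.94 in WT cells (0.14). Pfkfb4 had 6.56 and 6.26 in KO cells (0.30), and 6.40 and 6.34 in WT cells (0.064). Pfkfb3 had 10.85 and 10.71 in KO cells (0.14), and 10.63 and 10.79 in WT cells (-0.16). By the probe sets used, both Pfkfb genes and all hexokinases therefore had a larger XCL1 difference in KO than in WT cells. Pfkl, the liver-type phosphofructokinase, differed by -0.02 and 0.04, the triose isomerase Tpi1 by 0.21 and 0.15, and the aldolase Aldoc by -0.10 and 0.16. Pfkm, the muscle type, was below the limit throughout, with signals of 3.91 to 4.53.

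Lower glycolysis genes were above 0 with XCL1 in WT cells for 5 of 5 members and split in KO cells. Eno2, the enolase also known from neurons, had 7.46 with LPS and XCL1 and 7.21 with LPS in KO cells (0.25), and 7.84 and 7.46 in WT cells (0.39). Its WT difference ranked at percentile 98.2 of its signal class. Pgk1, a phosphoglycerate kinase and the one member on the X chromosome, had 10.02 and 9.83 in KO cells (0.19), and 10.13 and 9.91 in WT cells (0.21). Pkm, the pyruvate kinase of most tissues, had 10.15 and 9.89 in KO cells (0.26), and 10.16 and 10.09 in WT cells (0.076). These 3 genes were higher with XCL1 in both genotypes.

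Gapdh and Pgam1 differed in opposite directions with XCL1 in the 2 genotypes. Gapdh, the glyceraldehyde-phosphate dehydrogenase often used as a reference gene, had 11.64 with LPS and XCL1 and 11.93 with LPS in KO cells (-0.29), and 12.25 and 12.11 in WT cells (0.14). The KO array with XCL1 was the lowest of the 4 and the WT array with XCL1 the highest. Gapdh has many processed pseudogenes, which can share probes with it. Its other 2 probe sets gave -0.30 and -0.37 in KO cells and 0.21 and 0.39 in WT cells, and 7 bright probe sets listed for Gapdh and Gm12070, 2 of them with identical values, gave -0.31 to -0.22 in KO cells and 0.062 to 0.14 in WT cells. One dim set listed with Gapdh-ps15 gave 0.25 and 0.05. Pgam1, a phosphoglycerate mutase, had 7.61 and 7.79 in KO cells (-0.18), and 7.90 and 7.60 in WT cells (0.29), but its second probe set gave -0.04 and -0.28, so the 2 sets disagree in WT cells.

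Lactate is made by Ldha and leaves the cell through the monocarboxylate transporters Slc16a1 and Slc16a3. Slc16a1 had the highest WT difference of the glycolysis members, with 7.56 with LPS and XCL1 and 7.49 with LPS in KO cells (0.075), and 7.78 and 7.35 in WT cells (0.43, or 1.35-fold). That WT difference ranked at percentile 99.0 of its signal class. Ldha had 5.46 and 5.66 in KO cells (-0.20), and 5.89 and 5.76 in WT cells (0.14). For Slc16a3, the exporter of glycolytic cells, the differences were -0.074 and 0.0078. The probe set shared by Aldoa and Aldoart1 gave -0.42 in KO cells and 0.24 in WT cells, a direction like that of Gapdh and Ldha, but it cannot be assigned to either gene.

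Hypoxia genes other than Ddit4 gave small XCL1 differences where their signals were above the limit. Hif1a, the oxygen-regulated HIF subunit, had 9.42 with LPS and XCL1 and 9.54 with LPS in KO cells, and 9.50 and 9.49 in WT cells (-0.12 and 0.0075), while its dimmer second probe set gave 0.33 and 0.013. Vegfa, the angiogenic growth factor and a standard HIF target, had 7.32 and 7.32 in KO cells and 7.28 and 7.24 in WT cells, within 0.09 over the 4 arrays. For Adm, which encodes the vasodilator adrenomedullin, the differences were -0.032 and 0.21. They were 0.048 and 0.20 for Ndrg1, a stress-response gene, and 0.11 and 0.058 for Mxi1, an antagonist of Myc. The second probe set of Mxi1, also above the limit, gave -0.12 and -0.12, so its 2 sets disagree in sign in both genotypes. Pdk1, a kinase that holds pyruvate back from the mitochondria, gave 0.17 and -0.13, and P4ha1, a collagen prolyl hydroxylase, 0.10 and 0.017. No gene of this set but Ddit4 reached 1.2-fold with XCL1 above the limit. The probe set shared by Bnip3l and its pseudogene gave 0.11 and 0.18, and that shared by Ankrd37 and Lrp2bp -0.02 and -0.32.

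**Figure D3:**
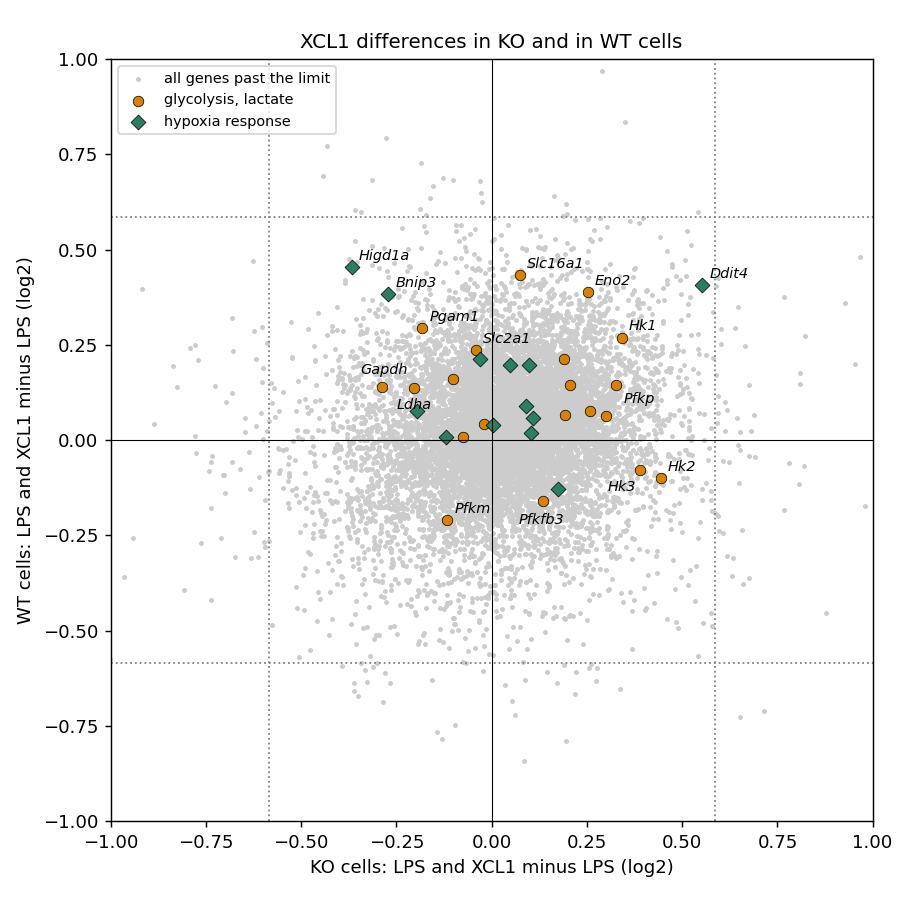
XCL1 difference in KO cells (horizontal) against that in WT cells (vertical), both LPS and XCL1 minus LPS on the log2 scale, for the members (circles and diamonds) over all genes above the limit (grey), with 8 genes beyond the axes not drawn and dotted lines at 1.5-fold. Ddit4 and Hk1 lie at the upper right, Gapdh, Pgam1, Ldha, Bnip3 and Higd1a at the upper left, and Hk2, Hk3 and Pfkfb3 at the lower right.

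The difference between the XCL1 effects asked whether the receptor changes the response, and it combines 4 arrays with no replicate. As WT minus KO the members had a median of 0.035, against -0.011 for all genes, with 18 of 33 above 0, against 47.7%. Of the members 12 (36.4%) were above 0 in WT and below 0 in KO, against 21.1% of all genes, and 4 (12.1%) the other way, against 22.5%. Bnip3, Higd1a and P4ha2, below the limit, are among the 12. So are Slc16a3, Hif1a and Pfkl, with WT differences of 0.0078, 0.0075 and 0.043, smaller in size than the centring shift of -0.069 in WT cells. The second probe sets of Hif1a and Pgam1 did not show the pattern. It was not recounted under another scaling. Members past 1.2-fold above the limit were Gapdh (0.43), Pgam1 (0.48), Ldha (0.34), Slc16a1 (0.36) and Slc2a1 (0.28) on the higher side in WT and Hk2 (-0.54), Hk3 (-0.47), Pfkfb3 (-0.30) and Pdk1 (-0.30) on the lower. Over all genes 11.3% and 12.7% passed 1.2-fold in these directions. P4ha2, below the limit, passed as well (0.27). By the probe sets used, all 3 hexokinases and both Pfkfb genes were below 0, and of the 5 lower glycolysis genes 4 were above 0 and Pkm was not. That grouping depends on the probe set, as the second set of Pgam1 gave -0.24 and a set shared by Hk1 and Hk1os gave 0.37. At 1.5-fold, where 2.91% of genes passed, the 2 members were Bnip3 and Higd1a, both with signals below the limit on every array. They had opposite signs in the genotypes, as 2.66% of genes did at that size.

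KO minus WT asked which members differ when the receptor is absent, in each treatment. With LPS and XCL1 Egln1 and Gapdh were lower by 1.5-fold, Higd1a passed the same difference with signals below the limit, and 0 members were higher, where 1.80% of all genes were lower and 1.66% higher. That split of 0 higher and 3 lower became 2 and 1 after centring, with Pfkm, below the limit, among the 2, and 1 and 3 with cyclic loess. Centring shifted all genes likewise, as given below. With LPS, Egln1 alone was lower and 0 were higher, where 1.00% of genes passed in each direction. Of the members 21 were below 0 with LPS and XCL1 and 18 with LPS, against 56.8% and 60.2% of genes. The members had medians of -0.11 with LPS and XCL1 and -0.063 with LPS, against -0.039 and -0.052 for all genes. At 1.2-fold, 5 were higher and 11 lower with LPS and XCL1, where 11.2% and 17.4% of genes were, and 2 were higher and 4 lower with LPS, where 8.02% and 15.1% were. Among the 28 members past the limit, 4 were higher and 9 lower with LPS and XCL1, and 1 higher and 4 lower with LPS. After centring, the splits over all 33 members were 9 higher and 8 lower with LPS and XCL1, and 8 higher and 3 lower with LPS. The shares of all genes at 1.2-fold were not counted after centring, so the shares above are no background for the centred splits. Centring the arrays added 0.103 and 0.100 to every difference, and the members' medians were then -0.0065 and 0.038. The medians of all genes rose by the same amounts, so the members' medians stayed below them as before. The split of all genes past 1.5-fold was 184 higher and 199 lower with LPS and XCL1 (336 and 92 after centring), and 111 and 111 with LPS (202 and 52).

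Egln1 was the one member lower in KO cells by 1.5-fold in both treatments, as were 0.298% of all genes. It encodes PHD2, the main prolyl hydroxylase that marks HIF alpha subunits for degradation. Its signals were 6.59 with LPS and XCL1 and 6.49 with LPS in KO cells, against 7.31 and 7.11 in WT cells. Both KO signals lay below both WT signals. The differences were -0.72 and -0.62, or 1.65-fold and 1.54-fold, at percentiles 0.72 and 1.44 within its signal class. With cyclic loess they were -0.68 and -0.56 and with centring -0.62 and -0.52, so the pair with LPS then stayed within 1.5-fold. The mice behind the arrays are not given, so the second pair is not read as a repeat. Egln3, an inducible prolyl hydroxylase, was below the limit, at 4.35 and 4.26 in KO cells and 4.60 and 4.51 in WT cells. Hif1a, their substrate, differed by -0.074 and 0.053 and so stayed within 1.2-fold. Egln2, the third of these hydroxylases and not a member, had 7.81 and 7.42 in KO cells, against 7.45 and 7.36 in WT cells (0.36 and 0.06). Vhl, the ligase subunit, had 6.52 and 6.51, against 6.98 and 6.64 (-0.46 and -0.13).

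Gapdh was lower in KO cells by 1.53-fold with LPS and XCL1 (-0.61) and by 1.13-fold with LPS (-0.18). Its other 2 probe sets gave -0.69 and -0.51 with LPS and XCL1, and -0.18 and 0.24 with LPS. The 7 bright sets shared with Gm12070 gave -0.58 to -0.48 and -0.20 to -0.12. With centring Gapdh was at -0.51 in the pair with LPS and XCL1, within 1.5-fold. The KO array with XCL1 held the lowest signal of the 4 in all 3 sets and in the 7 shared ones, while the dim set listed with Gapdh-ps15 was highest on it.

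Further members of glycolysis were lower in KO cells in both treatments without reaching 1.5-fold. Slc2a1 differed by -0.42 with LPS and XCL1 and -0.14 with LPS, Slc2a3 by -0.31 and -0.44, Eno2 by -0.38 and -0.25, Ldha by -0.43 and -0.093 and Tpi1 by -0.20 and -0.26. All 5 measured lower glycolysis genes were below 0 with LPS and XCL1, from -0.61 for Gapdh to -0.013 for Pkm, and 4 of 5 with LPS. Pgk1, on the X chromosome, differed by -0.11 and -0.087, within 1.2-fold in both treatments. Aldoc gave -0.33 and -0.065 and Pfkl -0.19 and -0.13. By the probe sets used, 15 (45.5%) of all 33 members were below 0 in both pairs and 9 (27.3%) above, close to the 42.3% and 25.3% of all genes. Mxi1 is among the 15 and Ndrg1 among the 9, and their second probe sets gave the other sign in both pairs. At 1.2-fold in both pairs, Slc2a3, Egln1 and Adm were lower, where 6.39% of genes were, and Pfkm, below the limit, was higher, where 3.83% were. Both KO signals of Slc2a3 (5.37 and 5.18) were below the limit. No member was higher by 1.5-fold in both pairs, where 0.406% of genes were.

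Hk2, Hk1 and the platelet-type phosphofructokinase Pfkp were above 0 in both pairs, unlike Pfkl. Hk2 was higher in KO cells by 0.56 with LPS and XCL1, or 1.47-fold, and differed by 0.014 with LPS. It passed 1.5-fold with cyclic loess (0.60) and with centring (0.66). Hk3 differed by 0.45 and -0.020, Hk1 by 0.19 and 0.12, and Pfkp by 0.40 and 0.22. The probe set shared by Hk1 and Hk1os gave -0.20 and 0.17. Hk2 and Hk3 thus differed between the genotypes mainly on the arrays with XCL1, while Pfkp was higher in both pairs. Pfkm gave 0.50 and 0.41 with signals below the limit. Pfkfb3 gave 0.22 and -0.077 and Pfkfb4 0.16 and -0.077. Slc16a3 differed by 0.16 and 0.24 and Slc16a1 by -0.22 and 0.14. The 2 probe sets of Pgam1 disagreed with LPS and XCL1, at -0.29 and 0.33, and gave 0.19 and 0.095 with LPS.

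Hypoxia targets split as well. Adm had 6.02 with LPS and XCL1 and 6.05 with LPS in KO cells, against 6.55 and 6.34 in WT cells (-0.53 and -0.29), and it passed 1.2-fold in both pairs. Ddit4 was higher by 0.38 and 0.24. Ndrg1 had 10.08 and 10.03 in KO cells, against 9.87 and 9.67 in WT cells (0.21 and 0.36), but its second probe set gave -0.02 and -0.06. Pdk1 had 6.06 and 5.88, against 6.12 and 6.25 (-0.062 and -0.37). Egln1 and Adm were thus lower and Ddit4 higher in KO cells in both treatments, while the probe sets of Ndrg1 disagreed in sign. Differences for Vegfa were 0.046 and 0.081, for Mxi1 -0.011 and -0.063, and for P4ha1 0.18 and 0.091. The second probe set of Mxi1 gave 0.091 and 0.091, the opposite sign. The set shared by Bnip3l and its pseudogene gave -0.28 and -0.21, and it cannot be assigned to either of them. P4ha2, a second collagen prolyl hydroxylase, stayed below the limit at 4.57 to 4.77.

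**Figure D4:**
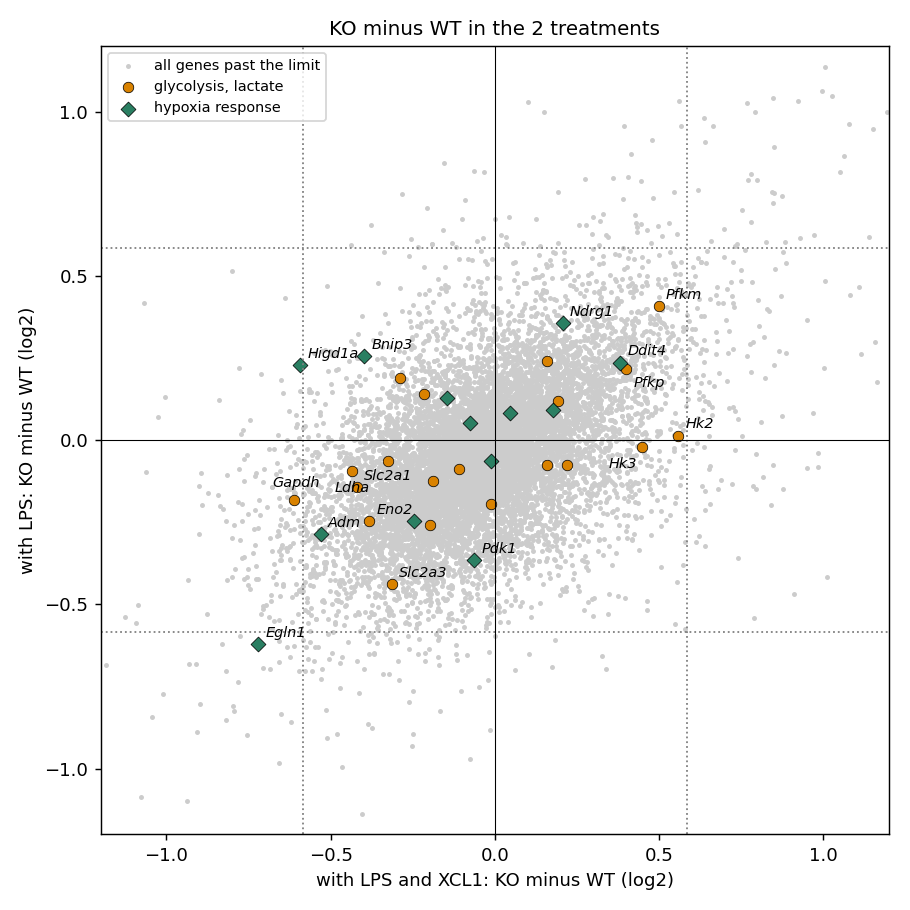
KO minus WT with LPS and XCL1 (horizontal) against KO minus WT with LPS (vertical) on the log2 scale, for the members over all genes above the limit (grey), with 19 genes beyond the axes not drawn and dotted lines at 1.5-fold. Egln1 at -0.72 and -0.62 is the one member beyond 1.5-fold on both axes, and Gapdh passes it on the horizontal axis only, as does Higd1a, whose signals are below the limit on every array.

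Other genes of these pathways, listed alongside the members, gave few differences of 1.5-fold. Of 27 measured hypoxia targets beyond the members, Edn1, which encodes the vasoconstrictor endothelin, had 7.86 with LPS and XCL1 and 7.56 with LPS in KO cells, against 6.75 and 7.09 in WT cells, differing by 1.11 and 0.47. Mif, a cytokine with tautomerase activity, had 8.59 and 9.03 in KO cells, against 9.32 and 9.24 in WT cells, differing by -0.73 and -0.21. With XCL1, Mif differed by -0.44 in KO cells and 0.08 in WT cells, the same directions as Gapdh. Bhlhe41 (-0.65 in KO minus WT with LPS) and Ppp1r3c (-0.69 with XCL1 in WT cells) passed the threshold below the limit on signal. The list's medians were 0.046 and 0.069 with XCL1 in KO and WT cells, and -0.072 and -0.055 in KO minus WT with LPS and XCL1 and with LPS.

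None of 21 other glycolysis genes, 6 of the pentose phosphate pathway, 12 of pyruvate entry into mitochondria, 9 other HIF regulators and 7 glycogen genes differed 1.5-fold in any of the 4 pairs. Pgd, an enzyme of the pentose phosphate pathway that yields NADPH, had 9.91 with LPS and XCL1 and 9.42 with LPS in KO cells (0.49), and 9.82 and 9.57 in WT cells (0.25). Eno3, an enolase known from muscle, had 7.41 and 7.21 in KO cells (0.20), and 7.94 and 7.42 in WT cells (0.52), a pattern of signs and order like that of Eno2. Pklr, the pyruvate kinase of liver and red cells, differed with XCL1 by -0.49 in KO cells and by -0.15 in WT cells. In KO minus WT with LPS and XCL1 and with LPS, Pdp2, a phosphatase that activates pyruvate dehydrogenase, gave -0.56 and -0.41, and Pdhx, a subunit of that complex, -0.24 and -0.56. Medians of these 5 lists ran from 0.011 to 0.12 with XCL1 in KO cells and from 0.023 to 0.16 in WT cells, and from -0.14 to 0.13 over both genotype pairs.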

How the data were processed

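Total RNA was labelled with biotin and hybridised to MoGene ST 2.0 arrays, per the labels. The authors deposited gene-level RMA output on the log2 scale, per the labels' descriptions, and values run from 2.00 to 13.7 with array medians of 5.40 to 5.44. The software version and annotation build are not stated there. RMA equalises arrays, so a shift of most genes one way cannot be seen. Correlations between arrays over genes were 0.983 to 0.993.

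Probe sets were named from the platform annotation, which lists 25335 of 41345, 23521 with 1 symbol. Predicted genes, olfactory receptors, antigen receptor segments and small RNAs were dropped. Of several probe sets of a gene, the one with the highest mean was used. Differences were taken between single arrays, with no test, as planned. The counting was tested on simulated data. Tools were Python 3.11.15, pandas 2.3.3, R 4.3.3 and limma 3.58.1 (cyclic loess, span 0.7, 3 iterations).

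All 38 members are named. Other listed genes were named at 1.5-fold in a pair, or as 1 of the 2 highest or lowest of their list, and Egln2 and Vhl by the latter. Markers and Y-linked genes check the labels. Members, lists and rules were chosen with earlier results of these data known. Which members' promoters were printed was chosen after their values were seen. Alternatives were other thresholds, limits, scalings and probe set rules.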

Additional observations from a re-analysis of the deposited data

Results flagged for a closer look

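Higd1a and Bnip3, both mitochondrial HIF targets, had XCL1 differences of opposite sign in the 2 genotypes that lay more than 0.58 apart on the log2 scale, with signals below the limit on every array. The difference was not tested. Higd1a, a small inner membrane protein, had 4.77 with LPS and XCL1 and 5.14 with LPS in KO cells (-0.37), and 5.36 and 4.91 in WT cells (0.45), a WT minus KO difference of 0.82. Bnip3, a mitophagy receptor, had 4.94 and 5.21 in KO cells (-0.27), and 5.34 and 4.96 in WT cells (0.38), a WT minus KO difference of 0.65. All 8 signals were below the limit of 5.43, and of all genes above it 2.66% met the same condition.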

How the results depend on the processing

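No paired analysis was possible because each group holds 1 array. Medians moved by more than the probe set spread over the root of the number of genes in these cases. With XCL1 in KO cells the median was 0.043 with cyclic loess, 0.024 with centring and 0.048 with dim signals raised to the limit. In WT cells it was 0.069 with centring, 0.088 with the mean of probe sets and 0.067 with dim signals raised. For KO minus WT with LPS and XCL1 it was -0.0065 with centring, -0.032 with the mean of probe sets, -0.011 with dim signals raised, -0.013 with the stricter limit and -0.062 with the limit on the mean. With LPS it was 0.038 with centring and 0 with dim signals raised. The pair with LPS and the count in both pairs gave 0 members at 1.5-fold with cyclic loess and with centring. For the difference between XCL1 effects, 0 members passed with dim signals raised, the stricter limit, the limit on the mean, or members past the limit only (this last chosen after seeing the data). At 2-fold 0 members passed in any comparison. At 1.2-fold 9, 7, 12, 16 and 6 passed for XCL1 in KO, XCL1 in WT, their difference, and KO minus WT with LPS and XCL1 and with LPS, and 4 in both genotype pairs. All of these counts include members below the limit. No member past 1.5-fold changed sign under another scaling or probe set rule. Depth cannot be read from arrays. The limit is the median of all values with no detection test behind it, so the order of signals under it is not relied on.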
